A study of Mus musculus with 4 samples.

Results

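The p53 gene set described here has 10 genes: Trp53, its negative regulators Mdm2 and Mdm4, and the target genes Ccng1, Trp53inp1, Sesn1, Aen, Perp, Psrc1 and Polk. All probe sets annotated with exactly 1 of these symbols were taken, which gave 21 of the 22690 probe sets on the array, for 9 of the 10 genes. No probe set carried Trp53 as its only symbol in the annotation used, so Trp53 itself was not analysed here. Of the 21 probe sets, 17 were called present on at least 2 of the 4 arrays and were tested, and each of the 9 genes kept at least 1 of them.

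The samples were mouse embryonic fibroblasts, primary connective tissue cells grown from embryos, that had been given a retrovirus built on pBabePuro. In the 2 control samples the virus was empty. In the 2 mTert samples it carried mTert, the catalytic subunit of mouse telomerase. Strain, passage, embryo, drug selection and p53 status are not in the labels, and they do not tell separate cultures from repeats of one. The p-values therefore rest on the spread between these arrays, which may be technical. The titles also number the samples 1 and 2 within each group, and the labels do not say what the number stands for.

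p53 is a transcription factor that cells stabilise after DNA damage, oncogene activity or other stress. MDM2, a ubiquitin ligase, marks p53 for degradation, and the MDM2 gene is itself switched on by p53, which closes a feedback loop. Fibroblasts grown from mouse embryos are known to enter a p53-dependent arrest after a number of divisions in culture. p53 binds DNA through a pair of decamers with a loose consensus, often close to the start of its target genes.

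Promoter windows are shown first because most of these genes were grouped as p53 targets. RefSeq windows of GRCm38.p6, running from 250 bases before to 50 bases after each transcript start, were held for 7 of the 9 measured genes: Mdm2, Mdm4, Ccng1, Sesn1, Aen, Psrc1 and Polk. Both strands were covered, since the p53 decamer consensus is its own reverse complement. At least 1 exact decamer stood in a window of 5 of the 7, namely the genes below, whereas 9.55% of all 27025 genes with a window had one. Counted by window, it was 6 of 12 here and 8.36% of all 32851. Since most of the genes had been grouped as p53 targets, a higher share is built into their choice and is no result of these arrays. No exact decamer was found in the windows of Mdm4 and Psrc1. A pair of adjacent decamers with at most 1 letter off the consensus was found for Ccng1, and for 0.107% of all genes. The decamer is in capitals with 10 bases on each side, 5′ to 3′ on the gene's strand.
Ccng1 (chr11:40755452-40755481, minus strand, 185 bases before the start): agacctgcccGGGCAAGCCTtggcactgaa
Mdm2 (chr10:117710925-117710954, minus strand, 186 bases before the start): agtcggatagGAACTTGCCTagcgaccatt
Aen (chr7:78895927-78895956, plus strand, 121 bases before 1 of its starts): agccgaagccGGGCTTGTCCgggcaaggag
Sesn1 (chr10:41887256-41887285, plus strand, 173 bases before 1 of its starts): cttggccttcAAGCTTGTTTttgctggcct
Polk (chr13:96519399-96519428, minus strand, 231 bases before 1 of its starts): catgtagcttGAACTAGCCTcaaacttatt
In Ccng1 the 10 bases just before the capitals form the other decamer of the pair, which differs from the consensus by 1 letter. These matches are letters in a window and do not show binding.

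Signals are in arbitrary units after each array was scaled to a common trimmed mean, and they are given in the order control 1, control 2, mTert 1 and mTert 2. Present calls covered between 51.6% and 54.4% of the probe sets that are not controls. The instrument record gave 5 µg of labelled cRNA for control 1 and 15 µg for each of the other arrays. Tert was called absent on both controls, at 128 and 84.7, and present on both mTert arrays, at 1165 and 845. All 12 fibroblast markers with a probe set were present on every array, with summed signals between 99255 and 106350. The sum hides single markers that differed between the numbers. Thy1 (3319, 1917, 3212 and 2180), Dcn, Pdgfrb, Fn1 and Col3a1 were lower on both arrays numbered 2. S100a4 (3789, 4705, 3715 and 4892), Pdgfra and Col1a1 were higher on both, and the other markers overlapped. Of 20 macrophage markers, 9 were called present on each array numbered 1, and 18 and 17 on control 2 and mTert 2. Their summed signal was 4085 on control 1 and 4744 on mTert 1, against 19613 on control 2 and 20086 on mTert 2. C1qa, Mpeg1, Tyrobp and Fcer1g were absent on both arrays numbered 1 and present on both numbered 2, whereas Csf1r, Cd68, Adgre1 and Lyz2 were present on all 4. In such bulk samples, fewer cells of a type and less RNA per cell cannot be told apart.

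The comparison of mTert with control asked whether the p53 set differs in fibroblasts that carry the telomerase subunit. The mTert and control signals overlapped for each of the 17 tested probe sets of the p53 set. Of the 17 probe sets, 11 had a higher and 6 a lower mean log2 signal in mTert, against 51.9% higher among all 12396 probe sets tested. In 0 of the 17 did both mTert signals lie wholly above or below both control signals, where 25.5% of all tested probe sets did so. A probe set that separates the arrays numbered 2 from those numbered 1 cannot also separate mTert from control. Of the 17, 11 were lower and 2 higher on both arrays numbered 2, so their overlap here was fixed by that split. At an adjusted p of 0.05 limma called 0 of the 17 and 0% of all tested probe sets. At an unadjusted p of 0.05 it called 0 of the 17 and 2.1% of all. Every one of the 17 had an adjusted p of 1. At the brightest tested probe set of each gene, the median log2 difference was 0.13 over the 9 genes and 0.0078 over all 7387 genes tested. Leaving out 1 array moved that median between -0.044, without control 2, and 0.25, without control 1. The 95% intervals of the differences, from the fit without a block, were wide. They ran from -0.23 to 0.50 for the Ccng1 probe set 1420827_a_at and from -1.40 to 0.36 for the Mdm4 probe set 1460542_s_at. Moderate differences in either direction were thus not detectable in that fit, whose spread includes the difference between numbers.

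**Figure D1:**
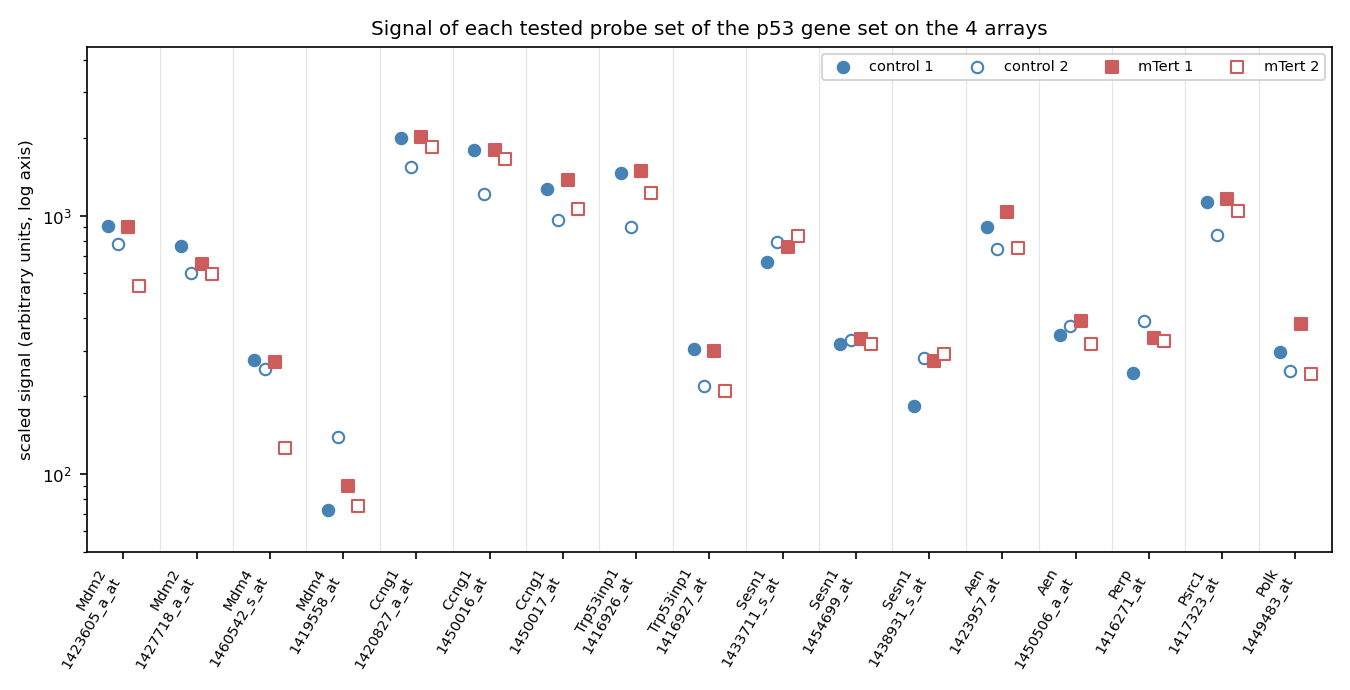
Scaled signal on a log axis (arbitrary units) of the 17 tested probe sets of Mdm2, Mdm4, Ccng1, Trp53inp1, Sesn1, Aen, Perp, Psrc1 and Polk, with 1 point per array. Circles are control and squares mTert, filled for arrays numbered 1 and open for arrays numbered 2. The filled symbols lie above the open ones for 11 probe sets, and levels of different probe sets are not comparable.

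Between arrays numbered 2 and 1, most of the set lay on one side. In 11 of the 17 probe sets, from Mdm2, Mdm4, Ccng1, Trp53inp1, Aen, Psrc1 and Polk, both arrays numbered 2 had a lower signal than both arrays numbered 1. Among all tested probe sets 19.5% did so. Both arrays numbered 2 were higher for 2 probe sets, both of Sesn1, where 20.3% of all tested probe sets were. The median log2 difference over the 9 genes was -0.37, and over all 7387 genes it was 0.0079, with quartiles of -0.11 and 0.13. None of the 17 passed the test over all probe sets: limma gave adjusted p between 0.197 and 0.999, although it called 1.55% of all probe sets, 1.06% higher and 0.492% lower. At an unadjusted p of 0.05 it called 6 of the 17, all lower, where 5.09% of all tested probe sets were called lower. The macrophage markers differed along the same line, with a median log2 difference of 2.20 over the 20 markers, and their part in these values was not tested. Each side of this comparison holds 1 control and 1 mTert array, and both comparisons use the same 4 arrays.

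**Figure D2:**
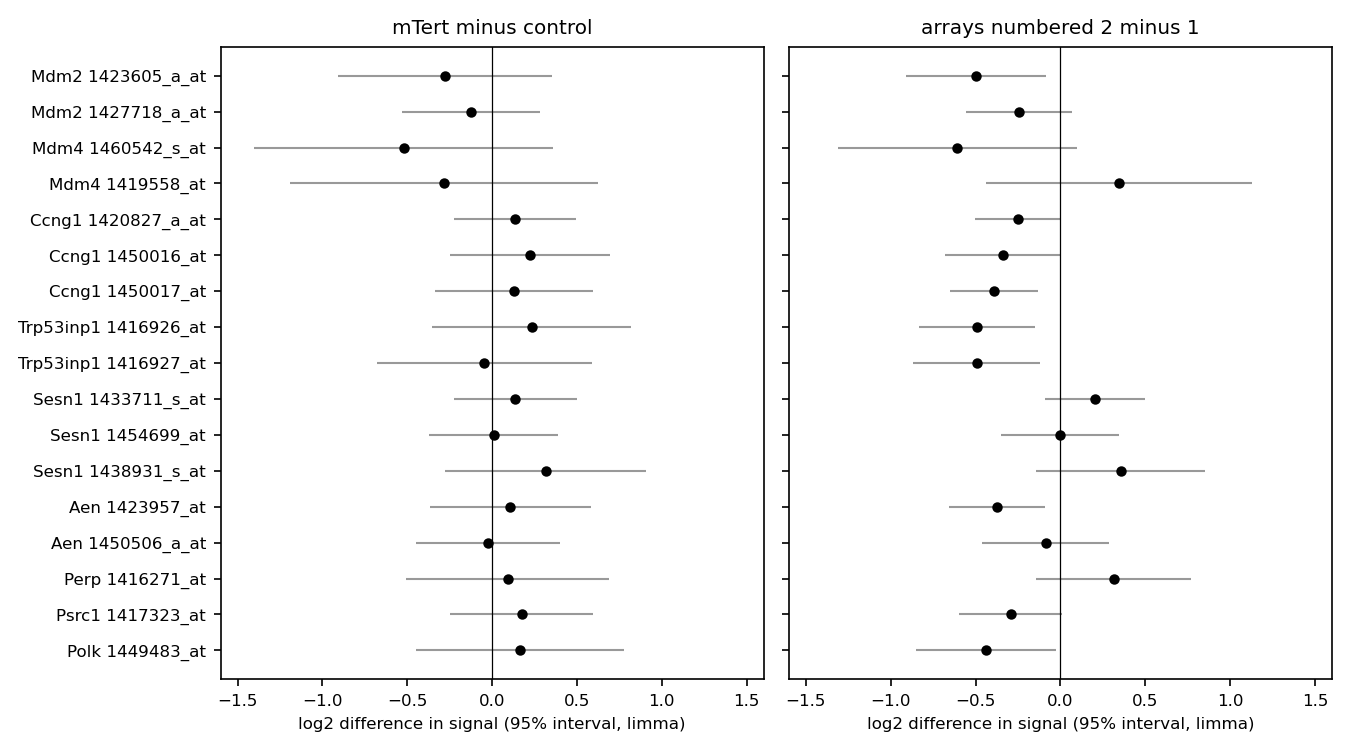
Log2 difference in signal for the 17 tested probe sets, mTert minus control on the left and arrays numbered 2 minus 1 on the right, with 95% intervals from limma that are not adjusted for the number of probe sets. Every interval on the left spans 0. On the right, 6 intervals lie wholly below 0, those of 1 probe set each of Mdm2, Ccng1, Aen and Polk and of both of Trp53inp1, and none lies wholly above.

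The regulators of p53 were examined first. Mdm2 was read by 2 probe sets, both present on all arrays. The probe set 1423605_a_at had signals of 911, 779, 907 and 533. Its values on the arrays numbered 1 were nearly equal, and mTert 2 was lower than the other 3. The log2 difference of mTert 2 from control 2 was -0.55, while that of mTert 1 from control 1 was -0.0064. Over all arrays it differed by -0.28 (SE 0.26) between mTert and control, with a 95% interval from -0.91 to 0.35. Between arrays numbered 2 and 1 it differed by -0.50 (SE 0.18), which is 1.41-fold lower, with a limma adjusted p of 0.334. The difference was -0.22 without mTert 2 and -0.77 without control 2.

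The other Mdm2 probe set, 1427718_a_at, had signals of 766, 598, 650.2 and 594. Here control 1 was the highest array and the 2 arrays numbered 2 were almost alike. Its log2 difference was -0.12 (SE 0.17) for mTert against control and -0.24 (SE 0.13) for arrays numbered 2 against 1, the latter -0.13 without control 1. The probe sets of Mdm2 thus lay on the same side in both comparisons. They differed in which array was lowest by a margin, since the low mTert 2 signal was seen in 1423605_a_at alone.

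Mdm4, a relative of MDM2 that binds p53 and blocks its transcriptional activity, was also read by 2 probe sets. The probe set 1460542_s_at had signals of 276, 256, 272 and 126, and was called present on each array. The other 3 arrays were alike, while the mTert 2 signal was 0.493 of that on control 2 and 0.464 of that on mTert 1. Because the 2 mTert arrays differed so much, the log2 difference from control was -0.52 with an SE of 0.36. That between arrays numbered 2 and 1, -0.61 (SE 0.31), was the most negative of the 17 probe sets and reached 1.52-fold, but its limma adjusted p was 0.558. It rested on mTert 2: the difference was -0.098 without that array and -1.12 without control 2. The letter s in a probe set name marks probes that may match more than 1 transcript or gene.

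The other Mdm4 probe set, 1419558_at, had low signals of 72.1, 139, 89.7 and 75.3, and control 2 was called marginal. Its high array was control 2 and not an array numbered 1, so it went against 1460542_s_at between arrays numbered 2 and 1, at 0.35 (SE 0.34). For mTert against control it stood at -0.28 (SE 0.37). The disagreement leaves the direction of Mdm4 between numbers unsettled. All 4 probe sets of these 2 regulators had a lower mean in mTert, but each turned to a higher one when 1 array was left out, to 0.11 without mTert 2 (1423605_a_at) and 0.056 without control 1 (1427718_a_at) for Mdm2, and to 0.033 without mTert 2 (1460542_s_at) and 0.19 without control 2 (1419558_at) for Mdm4.

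Among the target genes, Ccng1 encodes cyclin G1, which recruits a phosphatase to MDM2. Its 3 probe sets were present on all arrays. The first, 1420827_a_at, had signals of 1998, 1547, 2019.9 and 1843. In 1450016_at they were 1799, 1211, 1788 and 1660.1, and in 1450017_at they were 1267, 959.8, 1374 and 1057. In all 3 both arrays numbered 2 were below both arrays numbered 1, and control 2 was the lowest array.

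The Ccng1 difference between arrays numbered 2 and 1 was -0.25 (SE 0.11), -0.34 (SE 0.15) and -0.39 (SE 0.11) on the log2 scale, in the same order of probe sets. Without control 2 the first and second were -0.12 and -0.11, and without mTert 2 the second was -0.57. The last had the smallest p of the 17 in this comparison (limma adjusted p = 0.197), and was 1.31-fold lower. For mTert against control the 3 stood at 0.13 (SE 0.15), 0.22 (SE 0.19) and 0.13 (SE 0.19). The arrays numbered 1 hardly differed for the first 2 probe sets, with mTert 1 minus control 1 at 0.016 and -0.0084. The higher mTert mean came there from control 2, from which mTert 2 differed by 0.25 and 0.46.

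Trp53inp1, a stress-induced nuclear protein that takes part in p53 phosphorylation and autophagy, was like Ccng1 lower on both arrays numbered 2. Control 2 was the lowest array in 1416926_at only, and mTert 2 was the lowest in 1416927_at. Its brighter probe set, 1416926_at, had signals of 1460.4, 902, 1495 and 1219, and 1416927_at had 305, 219.8, 299.8 and 209. Both probe sets were present on each array, and in both the arrays numbered 1 were close together and above those numbered 2. Their difference between arrays numbered 2 and 1 was -0.49 (SE 0.15) and -0.49 (SE 0.16), each 1.41-fold lower (limma adjusted p = 0.218 and 0.278). The first was -0.28 without control 2. Within the groups, control 2 was below control 1 by a log2 difference of -0.70 and -0.47, and mTert 2 below mTert 1 by -0.29 and -0.52. Against control, mTert stood at 0.23 (SE 0.24) and -0.048 (SE 0.26), on opposite sides.

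Aen encodes a nuclease that is induced by p53 and promotes apoptosis. Its probe set 1423957_at had signals of 902, 742, 1034 and 750.1, lower on both arrays numbered 2, with a difference of -0.37 (SE 0.12) and a limma adjusted p of 0.278. The second, 1450506_a_at, had 345, 374.5, 392 and 319.6. It did not separate the numbers, since control 2 was above control 1 and mTert 2 below mTert 1. The third, 1451186_at, was absent on all arrays at 108 to 129.9 and was not tested. Against control, the 2 tested probe sets stood at 0.11 (SE 0.20) and -0.023 (SE 0.17) in mTert.

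Psrc1 encodes a microtubule-associated protein whose gene is regulated by p53. Of its 3 probe sets only 1417323_at was tested, with signals of 1133, 838, 1158 and 1042. Control 2 was the lowest array, as for Ccng1. The difference was -0.29 (SE 0.13) between arrays numbered 2 and 1 and 0.17 (SE 0.17) between mTert and control. The former was -0.14 without control 2 and -0.45 without mTert 2. Its probe set 1425416_s_at was called absent on all arrays in spite of signals of 509, 369, 598 and 451, and 1451698_at was absent at 5.50 to 16.6.

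Polk encodes DNA polymerase kappa, which copies past damaged bases. Its tested probe set, 1449483_at, had signals of 296, 251, 380.3 and 244, and control 2 was called absent. Both arrays numbered 2 were lower, by -0.44 (SE 0.18) on the log2 scale (limma adjusted p = 0.434), and mTert 1 was the highest array, without which the difference was -0.26. Against control, mTert stood at 0.16 (SE 0.25). The other probe set, 1419501_at, was present on control 1 only, at 232, and had 171, 209.7 and 186 on the rest. It fell just short of the required 2 present calls, while 1449483_at and the Mdm4 probe set 1419558_at passed with 3.

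Sesn1 and Perp did not share the lower signals on arrays numbered 2. Sesn1 encodes a sestrin, a stress protein that restrains mTORC1. Its probe set 1433711_s_at had signals of 659.8, 792, 756 and 834, and 1438931_s_at had 183, 280.2, 272 and 292. In both, control 1 was the lowest array and mTert 2 the highest. The third, 1454699_at, had 317, 329, 332 and 319, a range of only 1.05-fold between the highest and lowest array.

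The Sesn1 difference between arrays numbered 2 and 1 was 0.20 (SE 0.13), 0.36 (SE 0.22) and -0.0028 (SE 0.15), and between mTert and control 0.14 (SE 0.15), 0.32 (SE 0.24) and 0.0084 (SE 0.16). Without control 1 the first 2 differences between numbers were 0.10 and 0.070, and without mTert 1 the second was 0.64. In 1438931_s_at, control 1 stood apart from the other arrays, and mTert 2 exceeded control 2 by only 0.059. Perp, a tetraspan protein of desmosomes that p53 induces in apoptosis, had signals of 246, 392, 336 and 327 in its single probe set 1416271_at. Control 1 was again the lowest array and control 2 the highest, so both comparisons ran within the spread, at 0.31 (SE 0.20) between numbers and 0.093 (SE 0.25) between mTert and control. The former ran from 0.090 without control 1 to 0.54 without mTert 1. Of 9 epithelial markers, among them Epcam and Cdh1, between 0 and 3 were called present on an array, with summed signals between 756 and 909.

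The difference between numbers was next looked at within each group, which uses separate arrays. Control 2 minus control 1 had a median log2 difference of -0.24 over the 17 probe sets, and mTert 2 minus mTert 1 had -0.25. Over all tested probe sets these medians were -0.0006 and 0.0025. Both differences were negative for 11 of the 17 probe sets, or 64.7%, where 26% of all tested probe sets were negative in both. These are the same 11 already counted as lower on both arrays numbered 2. Their signs within the groups follow from that count and add no separate result. The sizes differed from gene to gene: in the controls the lowest values were those of Trp53inp1 at -0.70 and Ccng1 at -0.57, and in mTert those of Mdm4 at -1.11 and Mdm2 at -0.77. Whether the 2 groups differ in this respect could not be tested with 1 array on each side.

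**Figure D3:**
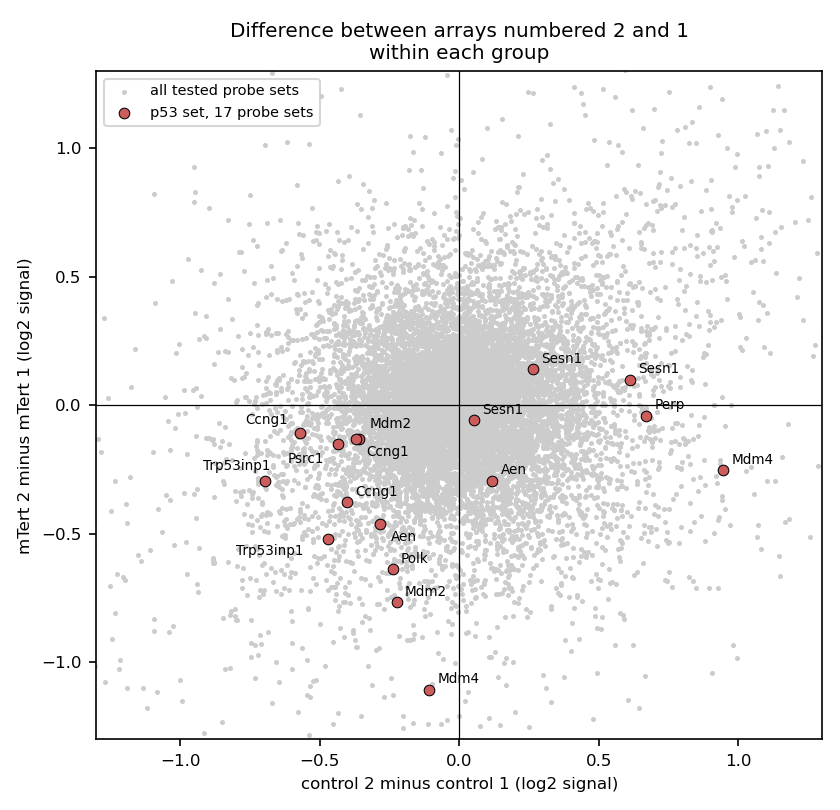
Log2 difference between arrays numbered 2 and 1, in the controls on the horizontal and in mTert on the vertical axis, for all 12396 tested probe sets (grey) and the 17 of the p53 set (red, labelled by gene). The lower left part holds 11 of the 17 red points, and 180 grey points lie outside the plotted range.

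Compared within each number, mTert 1 against control 1 and mTert 2 against control 2 had medians of 0.064 and -0.0094 over the 17 probe sets. The mTert array was the higher one in both pairs for 7 probe sets, or 41.2%, and the lower one in both for 4, or 23.5%. Over all tested probe sets the shares were 23.6% and 21.1%. The 7 were probe sets of Ccng1, Trp53inp1, Sesn1, Aen and Psrc1, and the 4 were both of Mdm2 and 1 each of Mdm4 and Trp53inp1. Each of the 4 differed very little in 1 pair, by -0.0064 and -0.0094 for Mdm2, -0.021 for Mdm4 and -0.023 for Trp53inp1. Some of the 7 did too, such as Ccng1 1420827_a_at at 0.016. The labels name no pairing by number.

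Other targets of p53 were read from a list of 28 genes without those above. Of these, 23 had a probe set with a single symbol and 14 were tested. With mTert, 9 of the 14 had a higher and 5 a lower mean, with a median of 0.019, and 52.5% of all genes tested had a higher one. The smallest p belonged to Btg2, an antiproliferative gene that growth factors also induce, with signals of 3065, 3105, 1949 and 1666 and a difference of -0.78 (SE 0.11). Both mTert signals were below both controls. In the fit without a block its limma adjusted p was 0.943, and 0 of the 14 and 0% of all tested probe sets passed. Of the 14, 2 were lower on both mTert arrays, Btg2 and Sesn2, and 1 was higher on both, Bbc3. Among all tested probe sets, 25.5% separated mTert from control in either direction. Bbc3, which encodes the BH3-only protein PUMA, stood at 0.25 (SE 0.13), the mTORC1 inhibitor Ddit4 at 0.37 (SE 0.21) and the sestrin Sesn2 at -0.27 (SE 0.17).

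Between arrays numbered 2 and 1, 12 of these 14 targets had a lower and 2 a higher mean, against 47.8% lower among all genes tested. Both arrays numbered 2 were lower for 6 of the 14, where 18.4% of all genes were, and higher for 2, where 21.9% were. The median was -0.13, a smaller shift than the -0.37 of the set itself. It came mostly from the controls. The mean log2 deviation of the 14 from their 4-array mean was 0.12 on control 1 and -0.11 on control 2. On mTert 1 and mTert 2 it was -0.0001 and -0.013. Cdkn1a, the gene of the cyclin-dependent kinase inhibitor p21, had signals of 3354, 2500.2, 3155.5 and 2762. It was lower on both arrays numbered 2, at -0.31 (SE 0.09), and had the smallest p of the list (limma adjusted p = 0.199). Zmat3, an RNA-binding protein, stood at -0.28 (SE 0.11) and Ddit4 at -0.44 (SE 0.17), whereas Steap3, a metalloreductase, stood on the other side at 0.41 (SE 0.14). At an adjusted p of 0.05 limma called 0 of the 14 and 1.55% of all tested probe sets. At an unadjusted p of 0.05 it called 4 lower and 1 higher, with 4.71% and 6.06% of all genes so called.

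Regulators and partners of p53 were read from a list of 24 genes, of which 18 had a probe set with a single symbol and 16 were tested. They were evenly placed with mTert, 8 higher and 8 lower, with a median of 0.0045. The smallest p belonged to Ppm1d, a phosphatase that acts on p53, at 0.23 (SE 0.18), the deacetylase Sirt1 at -0.22 (SE 0.21), Daxx at -0.11 (SE 0.13) and the kinase Chek2 at 0.13 (SE 0.16). Between arrays numbered 2 and 1 they had a median of 0.052, with 10 higher and 6 lower, where 47.8% of all genes tested were lower. Both arrays numbered 2 were higher for 5 of the 16 and lower for 3, where 21.9% and 18.4% of all genes were. Atm, the kinase that signals DNA breaks to p53, had 220.3, 354, 253 and 343 and stood at 0.56 (SE 0.16, limma adjusted p = 0.199). The acetyltransferase Crebbp stood at -0.37 (SE 0.15), Trp53bp1 at -0.24 (SE 0.13) and the kinase Prkdc at 0.27 (SE 0.17). In both comparisons limma called 0 of the 16 at an adjusted p of 0.05. Of all tested probe sets it called 0% with mTert and 1.55% between numbers. At an unadjusted p of 0.05 it called 0 with mTert, where 2.1% of all probe sets were called, and 1 higher and 1 lower between numbers, where 6.06% and 4.71% of all genes were.

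Taken as 1 value per array, the 9 genes of the p53 set deviated from their mean over the 4 arrays by 0.066 on control 1, -0.092 on control 2, 0.21 on mTert 1 and -0.18 on mTert 2. The 2 arrays numbered 2 were below the 2 numbered 1, and the mTert values lay outside the control values on both sides. The 14 other targets stood at 0.12, -0.11, -0.0001 and -0.013, so their spread was wider in the controls. The 16 regulators and partners stood between -0.053 and 0.057. With 2 arrays against 2, an exact permutation test allows no two-sided p under 0.333, so these values were not tested. Markers of proliferating cells were all present on each array, with summed signals of 7736, 7450.2, 7717 and 8727, which did not separate the numbers. This sum, too, hides single markers. Cdk1 (808, 980, 941 and 1088), Ccna2, Top2a and Aurkb were higher on both arrays numbered 2. Cdc20 was lower on both, and the other markers overlapped.

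**Figure D4:**
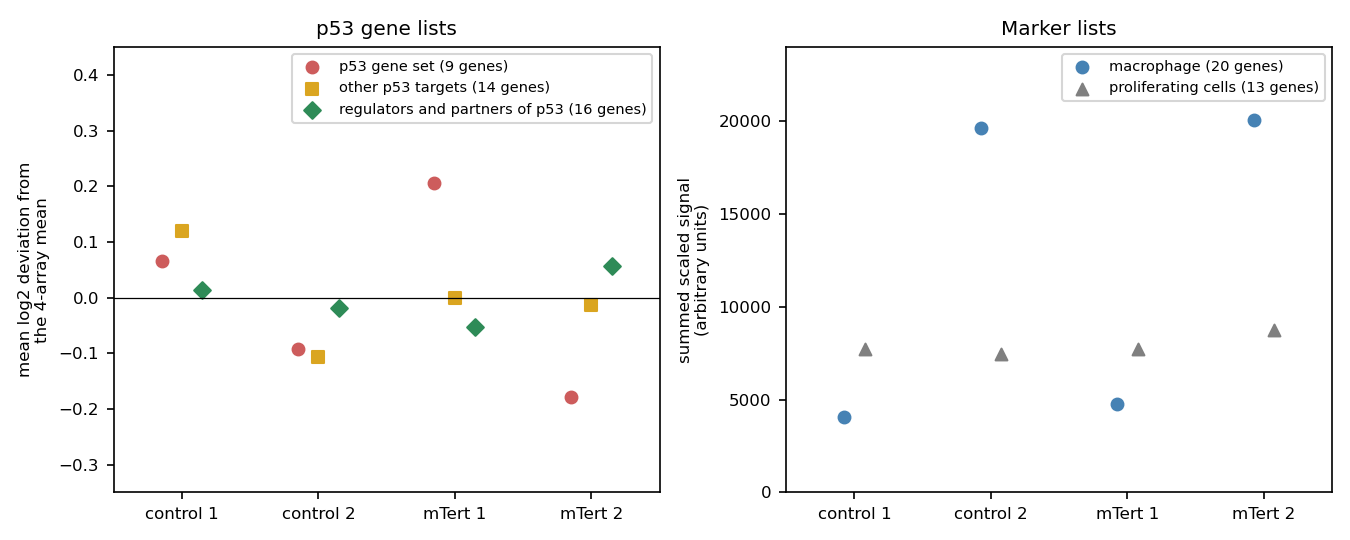
Left, mean log2 deviation of each array from the 4-array mean for the 9 genes of the p53 set, 14 other p53 targets and 16 regulators and partners of p53. Right, summed scaled signal of 20 macrophage markers and 13 markers of proliferating cells on the same arrays. The p53 set was lower on control 2 and mTert 2, at -0.092 and -0.18, the arrays on which the macrophage sum was 19613 and 20086.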

How the data were processed

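Signals and present, marginal or absent calls of 4 Affymetrix MOE430A arrays were used. The authors deposited 1 intensity per probe set on a linear scale and a detection p-value, per the file headers. Which software made them is not stated in the labels or headers. The deposited series table held the same intensities.

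Each array was scaled to a common mean after trimming 2% of probe sets at each end and taken to log2. The 64 control probe sets were left out, and present calls on at least 2 of the 4 arrays, of either group, were required, which kept 12396. Symbols came from GEO's platform annotation, and probe sets with several symbols were not used. limma 3.58.1 in R 4.3.3 (lmFit, eBayes with an intensity trend) compared mTert with control, and arrays numbered 2 with 1, without a block. Adjusted p-values are Benjamini-Hochberg over all 12396, with a threshold of 0.05. The brightest tested probe set stood for a gene in medians and lists. The step was tested on simulated data. Promoter windows were RefSeq's.

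The 10 genes, the lists and the tests were chosen with earlier results of these data known. Named are all 10 genes and, per list and comparison, the 4 genes of smallest p. Alternatives were quantile normalization, an offset of 50, other filters, no trend, a block and leaving out each array. The number of arrays limits precision.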

Additional observations from a re-analysis of the deposited data

How the results depend on the processing

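No probe set of the p53 set passed the adjusted threshold in either comparison under any alternative, with limma adjusted p from 0.077 to 0.999 between numbers and at least 0.999 with mTert. The direction was kept under every alternative for 14 of the 17 probe sets between numbers. With mTert it was kept for only 2 of the 17, both of Sesn1. Filters, trend and block leave a difference unchanged. Leaving out 1 array cannot reverse a difference whose sides do not overlap, as for 11 lower and 2 higher probe sets between numbers. The count of 14 therefore largely restates that lack of overlap. The replicate block, which pairs same-numbered arrays (their deviations from the group means correlate at 0.373, while the labels name no pairing), raised all calls with mTert from 0 to 18 and left those of the set at 0; of the 14 other targets Btg2 alone passed with it (limma adjusted p = 0.00403). Between numbers all calls were 192, and became 353 with the group as a block, 120 on probe sets present on all arrays, 94 without a filter and 80 without a trend; with 1 array left out they ran from 80 to 206, the lone array being assumed to vary like the others. The cause was not tested. Counting without overlap was an alternative chosen after seeing the data. With 1 array left out, 8 to 10 of the 17 separated mTert from control, when 61.8% to 63.4% of all probe sets did. Then 11 to 13 were lower on arrays numbered 2, when 34.1% to 35.2% of all were. Such a count cannot fall when an array is left out, so it gives no check on the main counts. The median over genes ran from -0.47 to -0.27 between numbers and from -0.044 to 0.25 with mTert when 1 array was left out.

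Quantile normalization turned Sesn1 1454699_at to -0.015 with mTert. Ranges with 1 array left out that crossed 0 were, for mTert against control, Mdm2 1423605_a_at -0.66 to 0.11 and 1427718_a_at -0.30 to 0.056, Mdm4 1460542_s_at -1.07 to 0.033 and 1419558_at -0.76 to 0.19, Ccng1 1420827_a_at -0.050 to 0.32, 1450016_at -0.062 to 0.51 and 1450017_at -0.073 to 0.33. They were also Trp53inp1 1416926_at -0.11 to 0.58 and 1416927_at -0.31 to 0.21, Aen 1423957_at -0.12 to 0.34 and 1450506_a_at -0.17 to 0.12, Perp -0.24 to 0.43, Psrc1 -0.044 to 0.39, Polk -0.16 to 0.48 and Sesn1 1454699_at -0.021 to 0.038. Between numbers they were Aen 1450506_a_at -0.20 to 0.027, Mdm4 1419558_at -0.096 to 0.79 and Sesn1 1454699_at -0.035 to 0.029.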
